A study of Homo sapiens with 8 samples.

Results

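Genes that store, move or sense zinc were followed across both MYCL perturbations. They were the metallothioneins MT1E, MT1F, MT1G, MT1X and MT2A, the zinc exporter SLC30A1, the zinc importers SLC39A1, SLC39A6 and SLC39A10, and the zinc-sensing transcription factor MTF1. They were taken by gene name from a table of 78691 genes, and each of the 10 names had 1 row. RNA was sequenced from 4 groups of 2 libraries each. C4-2B, a castration-resistant prostate adenocarcinoma line grown in RPMI medium with serum, carried either an empty lentiviral vector (control) or a lentivirus expressing human MYCL from the EF1A promoter together with EGFP (MYCL). NCI-H660, a neuroendocrine prostate cancer line kept in RPMI medium with serum and further growth supplements, carried either a non-targeting shRNA (shCtrl) or an shRNA against MYCL (shMYCL). The descriptions name both an adenoviral vector and a stable knockdown for NCI-H660 and do not settle which of them these libraries used. Only the C4-2B control libraries are titled biological replicates, so p-values measure the spread between these libraries, which may be technical, and each condition rests on 1 cell line.

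The libraries held between 15177071 and 32344170 counts. MYCL, the MYC family factor that was perturbed, had 371 and 320 counts in C4-2B control libraries against 65524 and 70253 with MYCL, and 1863 and 1602 in shCtrl and 165 and 198 in shMYCL libraries. Summed over 6 luminal markers, C4-2B libraries had at least 2470 counts scaled by library size (CPM) and NCI-H660 libraries at most 3.63, with KLK3 and KLK2 at 0. Summed over 6 neuroendocrine markers, NCI-H660 libraries had at least 874.9 CPM and C4-2B libraries at most 14.1, with INSM1 and NCAM1 at 0. Markers therefore followed the cell line labels. Mitochondrial genes took 3.50% of the counts of the lowest library and 10.7% of those of the highest, with all C4-2B libraries above all NCI-H660 libraries.

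Metallothioneins are small cysteine-rich proteins that bind zinc and copper in the cytosol and release zinc to other proteins. When free zinc rises, MTF1 enters the nucleus and binds metal response elements in the promoters of the metallothionein genes and of SLC30A1, which encodes ZnT1, the zinc exporter of the plasma membrane. Zinc enters through ZIP proteins, among them SLC39A1 (ZIP1), the main zinc importer of prostate epithelium, and the related SLC39A6 (ZIP6, also LIV-1) and SLC39A10 (ZIP10). Normal prostate epithelium holds more zinc than most tissues, and prostate carcinoma loses much of it. Zinc itself was not measured in these libraries.

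The 5 metallothionein genes lie in 1 cluster on chromosome 16 (GRCh38, GENCODE 44). MT2A (ENSG00000125148) spans 56608584 to 56609497, MT1E (ENSG00000169715) 56625475 to 56627112, MT1F (ENSG00000198417) 56657731 to 56660698 and MT1X (ENSG00000187193) 56682470 to 56684196, all on the plus strand. MT1G (ENSG00000125144) spans 56666730 to 56668065 on the minus strand. Outside the cluster, SLC30A1 (ENSG00000170385) lies on chromosome 1 from 211571568 to 211579161, SLC39A1 (ENSG00000143570) on chromosome 1 from 153959099 to 153968184 and MTF1 (ENSG00000188786) on chromosome 1 from 37809574 to 37859592, all on the minus strand. SLC39A6 (ENSG00000141424) lies on chromosome 18 from 36108531 to 36129385 on the minus strand, and SLC39A10 (ENSG00000196950) on chromosome 2 from 195575977 to 195737702 on the plus strand.

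Promoter sequence was examined because MTF1 is known to act through metal response elements. RefSeq windows of 250 bases before and 50 bases after the start on GRCh38.p14 were matched for 7 of the 10 genes (MT1E, MT1F and MT1G had no window in the table used). The core of the metal response element was searched as TGCACNC or TGCGCNC on both strands. MT2A held 8 cores in its window, MT1X 4 and SLC30A1 2. Of 35116 windows of the same length, 0.074% held at least 6 cores, 0.601% at least 4 and 8.6% at least 2. SLC39A6 held 1 core, SLC39A1 and SLC39A10 each held 1 in 1 of their 2 windows, and MTF1 held none, beside 29.6% of all windows with at least 1. The E-box CACGTG, the letters bound by MYC family proteins with MAX, occurred in none of these windows of the 7 genes and in 7.26% of all windows. A match describes the letters only and is not a bound site. The 250 bases before the start are printed 5′ to 3′ on the strand of each gene for MT2A, MT1X and SLC30A1, which are known targets of MTF1 and have a window here. Capitals mark the core on either strand (its reverse reads GNGTGCA or GNGCGCA). The coordinates are chr16:56608334-56608583 (plus) for MT2A, chr16:56682220-56682469 (plus) for MT1X and chr1:211579162-211579411 (minus) for SLC30A1.
MT2A: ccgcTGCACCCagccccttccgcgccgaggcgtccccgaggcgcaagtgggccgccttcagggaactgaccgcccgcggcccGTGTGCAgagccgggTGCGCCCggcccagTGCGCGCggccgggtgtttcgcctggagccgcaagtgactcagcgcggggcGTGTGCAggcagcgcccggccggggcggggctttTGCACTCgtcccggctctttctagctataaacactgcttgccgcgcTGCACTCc
MT1X: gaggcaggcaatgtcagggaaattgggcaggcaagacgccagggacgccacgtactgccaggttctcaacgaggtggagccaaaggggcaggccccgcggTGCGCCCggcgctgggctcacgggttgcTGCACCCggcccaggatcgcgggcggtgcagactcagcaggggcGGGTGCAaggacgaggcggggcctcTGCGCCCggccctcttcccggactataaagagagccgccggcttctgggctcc
SLC30A1: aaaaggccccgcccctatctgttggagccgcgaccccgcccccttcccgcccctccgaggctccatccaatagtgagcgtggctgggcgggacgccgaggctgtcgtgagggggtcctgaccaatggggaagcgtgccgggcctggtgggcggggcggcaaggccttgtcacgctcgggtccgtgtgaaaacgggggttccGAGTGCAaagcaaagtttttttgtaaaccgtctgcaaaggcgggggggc
In these runs, 7 of the 8 cores of MT2A lie before the start, on both strands. All 4 cores of MT1X lie before the start, and 1 of the 2 cores of SLC30A1 does. Perturbed libraries lay below their controls in both lines for MT2A, MT1X and SLC30A1, and also for SLC39A6 (1 core) and MTF1 (0 cores). The share of all genes with libraries apart in this way was not counted. By the thresholds given below, MTF1 was called in neither line, MT2A only in NCI-H660 and SLC39A6 only in C4-2B. The part of the cores in these changes was not tested.

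Levels of different genes were compared per length, as counts scaled by gene length and library (TPM). MT2A, the most widely expressed metallothionein, was the highest of the 10 genes in all 4 groups, at 550.2 ± 31.4 TPM in C4-2B control, 366.5 ± 18.2 in MYCL, 718.5 ± 49.3 in shCtrl and 443.7 ± 139.2 in shMYCL (SD, n = 2 each). In C4-2B control cells it was followed by MT1X at 372.8 ± 16.0 TPM (SD, n = 2), then SLC39A6, SLC39A1, SLC39A10 and SLC30A1, each with both libraries below those of the gene before it. MT1F (6.99 to 8.13 TPM) and MTF1 (6.59 to 7.30 TPM) overlapped at the bottom of that order. In NCI-H660 shCtrl cells SLC39A6 came next after MT2A, at 157.5 ± 20.8 TPM (SD, n = 2), followed by MT1X at 100.7 ± 12.4, SLC39A1 at 65.7 ± 5.39, MT1E at 53.6 ± 3.45 and MT1F at 31.9 ± 3.53 (SD, n = 2 each). SLC30A1 (5.91 to 7.88 TPM) and MTF1 (6.92 to 7.58 TPM) overlapped at the low end there. MTF1 stayed between 5.50 and 7.59 TPM in all 8 libraries.

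**Figure D1:**
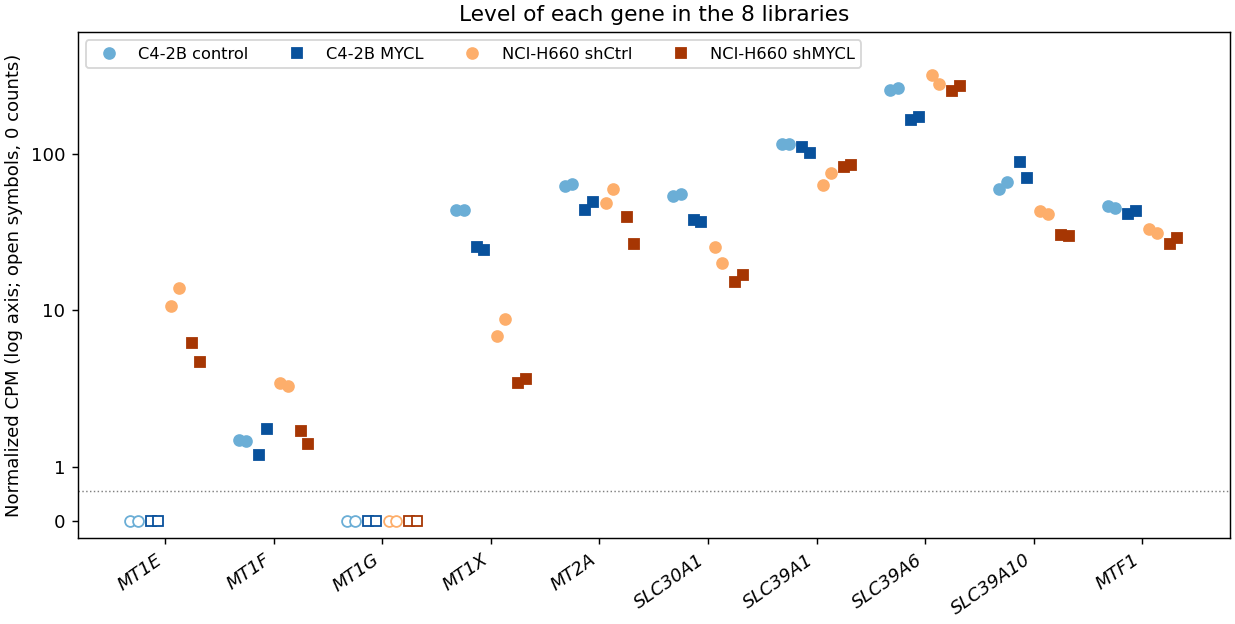
Normalized CPM (log axis) of the 10 genes in the 8 libraries, 1 point per library, with circles for the controls (C4-2B control, NCI-H660 shCtrl) and squares for MYCL and shMYCL; open symbols at the bottom are libraries with 0 counts. MT1E is at 0 in C4-2B and between 4.66 and 13.8 CPM in NCI-H660, MT1G is at 0 everywhere, and the squares of MT1X, MT2A and SLC30A1 lie below the circles of the same line.

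The mix of metallothioneins differed between the cell lines. MT1E had 0 counts in all 4 C4-2B libraries and 192, 271, 100 and 77 counts in the shCtrl and shMYCL libraries of NCI-H660. A count of 0 allows up to 3 counts in a library, and against that floor MT1E was at least 67.8-fold higher in shCtrl and at least 30.1-fold higher in shMYCL than in C4-2B libraries. MT1G had 0 counts in all 8 libraries, so no level or change was detectable at this depth. MT2A made up 58.9% to 59.3% of the metallothionein TPM in C4-2B control and 78.1% to 78.9% in shCtrl libraries. MT1X made up 39.8% to 40.3% in C4-2B control and 10.5% to 11.5% in shCtrl. MT1E, absent from the C4-2B counts, took 5.84% to 5.87% of metallothionein TPM in shCtrl and 4.31% to 4.43% in shMYCL. Within each line the share of MT2A was higher in the perturbed libraries, at 63.0% to 66.8% with MYCL and 80.7% to 86.1% with shMYCL. Of 21 rows for MT1 and MT2 genes and pseudogenes, 16 were at 0 in every library. These genes are near copies, and of the 50-base stretches of their transcripts 18.7% in MT1X, 16.4% in MT1G, 7.1% in MT1E, 4.48% in MT2A and 1.24% in MT1F occur in another gene, so reads may have been divided between them.

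**Figure D2:**
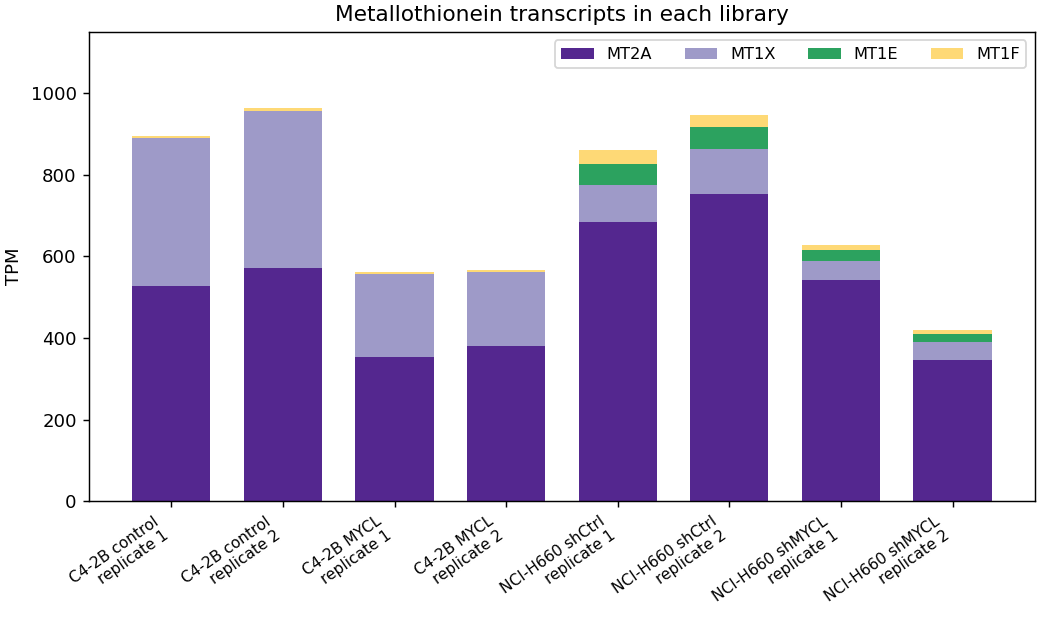
Metallothionein transcripts in each of the 8 libraries, as stacked bars of TPM for MT2A, MT1X, MT1E and MT1F (MT1G was at 0). MT1X forms 39.8% to 40.3% of the C4-2B control bars and 10.5% to 11.5% of the shCtrl bars, and the bars of MYCL and shMYCL libraries are shorter than those of their controls.

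With MYCL overexpression in C4-2B, MT1X, SLC30A1 and SLC39A6 fell, and the other tested genes of the set were not called. A gene was called when edgeR's quasi-likelihood test gave a Benjamini-Hochberg adjusted p under 0.05 over all genes and the absolute log2 fold change was at least 0.5. Of the 10 genes, 8 passed the filter on low counts and 3 were called, all lower, where 8.12% of the 16866 genes tested were called lower and 11.8% higher. The median log2 fold change was −0.273 over the 8 genes and −0.00169 over all genes tested. In bulk RNA, fewer cells with a transcript and less of it per cell cannot be told apart. An exact permutation test of 2 libraries against 2 has a smallest possible p of 0.33, so the tests lean on the spread shared between genes in edgeR. Groups of 2 libraries also did not overlap for genes that were not called, such as SLC39A1 and MTF1 in both lines. Separation alone is therefore weak evidence, and its share over all genes was not counted.

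Among the metallothioneins of C4-2B, MT1X had 43.6 and 43.9 CPM in control libraries against 25.6 and 24.3 with MYCL. The groups did not overlap, and the MYCL libraries held 0.573 of the control level. On the log2 scale the change was −0.80 (standard error, SE, 0.0873, edgeR adjusted p = 2.55e-04), at percentile 5.96 of the fold changes of all genes tested. MT1X shares 18.6% of its exon bases with the lncRNA ENSG00000259827 on the same strand. MT2A had 62.4 and 63.8 CPM in control libraries against 43.6 and 49.6 with MYCL. All MYCL libraries lay below all controls, and the log2 fold change of −0.43 (SE 0.0869, edgeR adjusted p = 0.005) was under the fold minimum. It passed that minimum on log2(TPM + 1) values, at −0.58, and without C4-2B MYCL replicate 2, at −0.52. MT1F, a minor form in these cells, had 46 and 33 counts in control libraries against 21 and 29 with MYCL. Its normalized levels overlapped, with a log2 fold change of −0.0041 and an interval of −0.871 to 0.863 (95%), so a change of either sign was not detectable at this depth. When the 21 MT1 and MT2 rows were summed to 1 feature, so that the division of reads among these rows no longer matters, though not that with genes outside the sum, the sum was 107.5 and 109.2 CPM in control libraries against 70.4 and 75.6 with MYCL, a log2 fold change of −0.56 (SE 0.0742, edgeR adjusted p = 6.38e-04).

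The exporter SLC30A1 had 53.9 and 55.3 CPM in C4-2B control libraries against 38.0 and 36.6 with MYCL. Both MYCL libraries were below both controls, at 0.687 of the control level, with a log2 fold change of −0.54 (SE 0.0811, edgeR adjusted p = 0.0012). This was near the fold minimum, and with log2(TPM + 1) values centred on each library's median it was −0.47 and not called. Of the importers, SLC39A6 had 255.1 and 264.5 CPM in control libraries against 164.2 and 171.9 with MYCL. The groups were apart, and the log2 fold change was −0.62 (SE 0.0699, edgeR adjusted p = 2.87e-04). SLC39A10, the closest relative of SLC39A6 in the set, had 59.3 and 65.8 CPM in control libraries against 88.7 and 70.6 with MYCL. Its log2 fold change was 0.36 (SE 0.113, edgeR adjusted p = 0.037), under the fold minimum, and it reached 0.52 without C4-2B MYCL replicate 2 and 0.19 without C4-2B MYCL replicate 1. SLC39A1 had 115.3 and 116.3 CPM in control libraries against 111.5 and 101.8 with MYCL, a log2 fold change of −0.11 with an interval of −0.285 to 0.0618 (95%) and an adjusted p of 0.293 in edgeR. SLC39A1 shares 60.8% of its exon bases with the gene ENSG00000285779 on the same strand and 8.26% with CREB3L4 on the other, so its counts are uncertain. MTF1, the factor itself, had 46.4 and 45.2 CPM in control libraries against 41.1 and 43.2 with MYCL. Its log2 fold change was −0.11, with an interval of −0.298 to 0.0711 (95%) and an adjusted p of 0.315 in edgeR.

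With MYCL knockdown in NCI-H660, metallothioneins and SLC30A1 fell as well. MT1E, MT1F, MT1X, MT2A and the exporter were called lower, and the 3 importers and MTF1 were not called. That is 5 of the 9 genes tested, all lower, where 8.99% of the 16980 genes tested were called lower and 7.18% higher. The median log2 fold change was −0.511 over the 9 genes and −0.00289 over all genes tested. Genes with between 700 and 2000 exon bases, the range that holds all 5 metallothioneins, had a median log2 fold change of −0.114 in NCI-H660 and 0.0387 in C4-2B. With that length trend removed, a setting added after the data were seen, the same 5 genes and SLC39A10 were called lower in NCI-H660.

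MT1E, the form not seen in C4-2B, had 10.7 and 13.8 CPM in shCtrl and 6.23 and 4.66 in shMYCL libraries. The groups were apart, and shMYCL cells held 0.442 of the shCtrl level. The log2 fold change was −1.18 (SE 0.206, edgeR adjusted p = 7.45e-04), at percentile 3.83 of all genes tested. MT1X had 6.82 and 8.82 CPM in shCtrl and 3.43 and 3.63 in shMYCL libraries. Its log2 fold change was −1.15 (SE 0.235, edgeR adjusted p = 0.00228). The calls of MT1E and MT1X held when any 1 of the 4 libraries was left out. MT2A had 48.8 and 59.5 CPM in shCtrl and 39.4 and 26.5 in shMYCL libraries. The shMYCL libraries were the lower ones but differed between themselves, and the log2 fold change of −0.72 (SE 0.159, edgeR adjusted p = 0.00394) was −0.46 without NCI-H660 shMYCL replicate 2 (adjusted p = 0.0745 in edgeR) and −1.03 without NCI-H660 shMYCL replicate 1. On log2(TPM + 1) values MT2A was −0.73 with an adjusted p of 0.0584 from limma. MT1F had 61 and 64 counts in shCtrl and 27 and 23 in shMYCL libraries. Its log2 fold change was −1.12 (SE 0.348, edgeR adjusted p = 0.0275), and its adjusted p was 0.0874 by DESeq2 and 0.0977, 0.0555 and 0.127 in edgeR without shCtrl replicate 1, shCtrl replicate 2 and shMYCL replicate 2. The sum of the 21 MT1 and MT2 rows was 70.8 and 85.9 CPM in shCtrl and 50.8 and 36.8 in shMYCL libraries, a log2 fold change of −0.84 (SE 0.143, edgeR adjusted p = 5.91e-04).

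SLC30A1 had 25.4 and 20.1 CPM in shCtrl and 15.2 and 16.8 in shMYCL libraries. The groups did not overlap, and the log2 fold change was −0.51 (SE 0.146, edgeR adjusted p = 0.0179), just past the fold minimum. The call was lost with DESeq2 (adjusted p = 0.0544), with limma on log2(TPM + 1) values (−0.43, adjusted p = 0.163) and in edgeR without shCtrl replicate 1 (−0.33) or shMYCL replicate 1 (−0.43). SLC39A10 had 43.5 and 41.0 CPM in shCtrl and 30.5 and 29.9 in shMYCL libraries. Its shMYCL libraries lay below the controls, with a log2 fold change of −0.49 (SE 0.117, edgeR adjusted p = 0.00667) that fell just short of the fold minimum, and it was called at −0.53 without shCtrl replicate 2. SLC39A6 had 321.3 and 280.6 CPM in shCtrl and 254.0 and 271.2 in shMYCL libraries, a log2 fold change of −0.20 with an interval of −0.427 to 0.0276 (95%) and an adjusted p of 0.191 in edgeR. SLC39A1 had 63.0 and 75.4 CPM in shCtrl and 82.4 and 84.5 in shMYCL libraries, a log2 fold change of 0.26 with an interval of 0.0244 to 0.505 (95%) and an adjusted p of 0.0999 in edgeR. MTF1 had 33.3 and 31.3 CPM in shCtrl and 26.7 and 29.0 in shMYCL libraries. Its log2 fold change was −0.22, with an interval of −0.476 to 0.0423 (95%) and an adjusted p of 0.215 in edgeR.

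**Figure D3:**
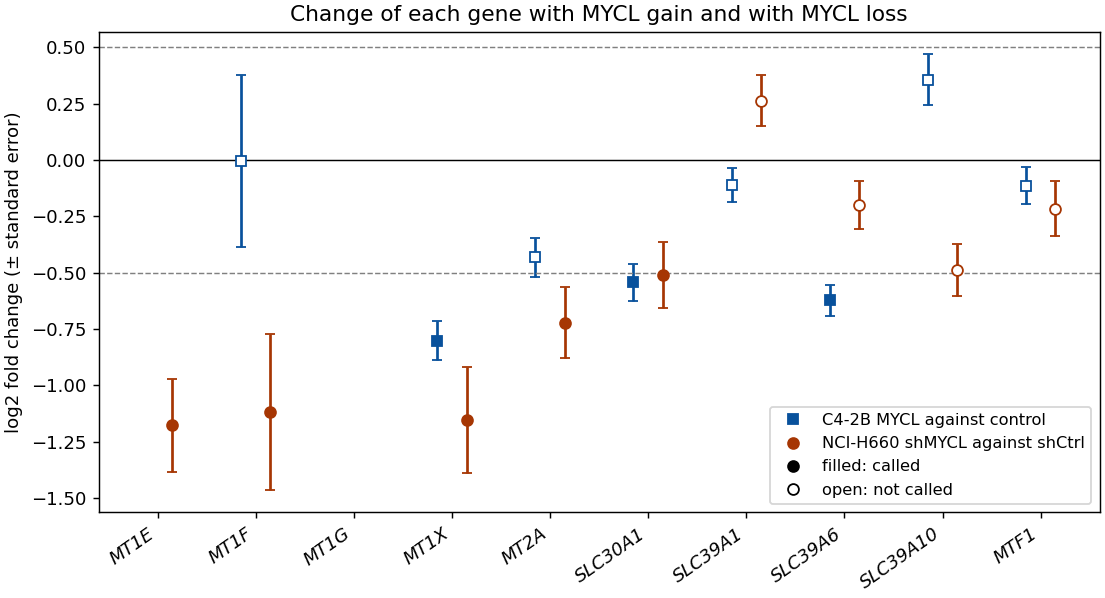
Log2 fold change of each gene with its standard error, for MYCL against control in C4-2B (blue squares) and shMYCL against shCtrl in NCI-H660 (brown circles); filled symbols passed an adjusted p under 0.05 and the dashed minimum of 0.5 in either direction, and genes without a symbol had too few counts to be tested. MT1X is filled and negative in both lines at −0.80 and −1.15, as is SLC30A1 at −0.54 and −0.51, while SLC39A10 is at 0.36 in C4-2B and −0.49 in NCI-H660, both open.

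Both cell lines were then set in 1 fit to ask whether the effect of high against low MYCL differed between them. The value tested was the log2 change from control to MYCL in C4-2B minus that from shMYCL to shCtrl in NCI-H660. Of the 8 genes with counts in both lines, 4 differed between the lines, all with a negative value, where 8.33% of the 19605 genes tested were called negative and 9.59% positive. The median was −0.941 over the 8 genes and 0.00277 over all genes tested. MT1X had −1.96 (SE 0.21, edgeR adjusted p = 6.9e-05) and MT2A −1.16 (SE 0.218, edgeR adjusted p = 0.00265). SLC30A1 had −1.06 (SE 0.171, edgeR adjusted p = 0.00104) and SLC39A6 −0.83 (SE 0.127, edgeR adjusted p = 7.27e-04). For MT1X and SLC30A1 the value combines a fall with more MYCL in C4-2B and a fall with less MYCL in NCI-H660. MT2A fell past the threshold in NCI-H660 and was lower under the fold minimum in C4-2B, and SLC39A6 fell past it in C4-2B. MT1F had −1.13 (adjusted p = 0.135 in edgeR), SLC39A10 −0.13 with an interval of −0.486 to 0.219 (95%), SLC39A1 0.15 with an interval of −0.148 to 0.448 (95%) and MTF1 −0.33 with an interval of −0.636 to −0.0294 (95%) and an adjusted p of 0.117 in edgeR. MT1E gave no usable estimate because all its C4-2B libraries were at 0. The sum of the MT1 and MT2 rows had −1.41 (SE 0.188, edgeR adjusted p = 2.77e-04). The perturbations differ in direction, construct and cell line together, and these cannot be told apart.

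Between the unperturbed states, MT1X, SLC30A1, SLC39A1, SLC39A10 and MTF1 were lower on the CPM scale in NCI-H660 shCtrl than in C4-2B control cells. In edgeR's fit of all 8 libraries, 7 of 9 tested genes were called, 2 higher and 5 lower, where 36.5% of the 19605 genes were called higher and 33.3% lower. As 13687 of the 19605 genes were called in either direction, the count of 7 is near the background. MT1E, given above by its lower bound, and MT1F at a log2 difference of 1.17 (SE 0.336, edgeR adjusted p = 0.00604) were the higher ones. MT1X was lower by the widest margin of the metallothioneins, at −2.48 (SE 0.134, edgeR adjusted p = 1.03e-09), or 0.179 of the C4-2B control level. SLC30A1 was at −1.26 and SLC39A1 at −0.74, SLC39A10 at −0.56 and MTF1 at −0.50, with standard errors from 0.0973 to 0.117 in the edgeR fit. MT2A (−0.22, adjusted p = 0.19) and SLC39A6 (0.21, adjusted p = 0.0439) were not called in edgeR. With log2(TPM + 1) values the median over all genes moved from 0.0334 to 0.525. There SLC39A10 and MTF1 changed sign to 0.055 each, MT2A was at 0.38, SLC39A1 at −0.13 and no longer called, SLC30A1 at −0.59 and still called, and SLC39A6 called at 0.81, so these directions and calls depend on the scale. MTF1, close to the fold minimum, was also not called with DESeq2 (−0.46), or without C4-2B control replicate 1 (−0.48), shCtrl replicate 2 (−0.45), shMYCL replicate 1 (−0.49) or shMYCL replicate 2 (−0.49). The lines also carried different constructs and were kept in different media, and these cannot be told apart from the line.

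The wider zinc transporter families were read from lists of the 10 SLC30 and 14 SLC39 genes. In C4-2B, 3 of 8 tested SLC30 genes were called, 1 higher and 2 lower, beside 11.8% higher and 8.12% lower over all genes. SLC30A4 (ZnT4), a vesicular transporter, had 498.7 and 506.9 CPM in control libraries against 279.7 and 278.9 with MYCL, a log2 fold change of −0.84 (SE 0.0678, edgeR adjusted p = 6.47e-05). SLC30A1 was the other gene called lower, and SLC30A3 (ZnT3), known from synaptic vesicles, was called higher at 1.46 (SE 0.463) on between 16 and 41 counts per library. In NCI-H660, SLC30A1 was the 1 gene called of the 8 SLC30 genes tested, beside 8.99% lower and 7.18% higher over all genes, so the count is near the background. Across the tested SLC30 genes the median change was −0.252 on the log2 scale in C4-2B cells and −0.1 in NCI-H660 cells.

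Of 12 SLC39 genes tested in C4-2B, SLC39A6 and SLC39A8 were called lower and SLC39A13 higher, with a median log2 fold change of 0.152 and a count near the background of 8.12% lower and 11.8% higher. SLC39A8 (ZIP8), an importer of zinc and manganese, had 134.1 and 125.8 CPM in control libraries against 72.4 and 72.4 with MYCL, a log2 fold change of −0.84 (SE 0.0741, edgeR adjusted p = 9.76e-05). SLC39A13 (ZIP13), of the Golgi and vesicles, had 0.59 (SE 0.133). In NCI-H660, 2 of 11 tested SLC39 genes were called, both lower beside 8.99% of all genes, with a median of −0.0154. These were SLC39A11 at −0.97 (SE 0.135, edgeR adjusted p = 1.14e-04) and SLC39A9 (ZIP9), which has also been described as an androgen receptor of the membrane, at −0.53 (SE 0.106). In the fit of both lines, the effect of high against low MYCL differed for 4 of 9 tested SLC30 genes (2 negative, 2 positive) and 5 of 12 SLC39 genes (3 negative, 2 positive), beside 8.33% negative and 9.59% positive over all genes, among them SLC30A4 at −1.06 (adjusted p = 0.00197 in edgeR) and SLC39A11 at −0.63 (adjusted p = 0.0131 in edgeR). Among the positive calls, SLC30A2 and SLC39A2 rest on a group at 0 counts. SLC30A2 had 0 counts in C4-2B control and 2 in each MYCL library. SLC39A2 had 0 counts in shCtrl and 2 to 4 in shMYCL libraries. DESeq2 called 3 of the SLC30 and 4 of the SLC39 genes for this difference. Between the control states, NCI-H660 had far less SLC30A4 (log2 difference −6.07) and SLC39A8 (−4.03) than C4-2B, with standard errors of 0.134 and 0.123.

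**Figure D4:**
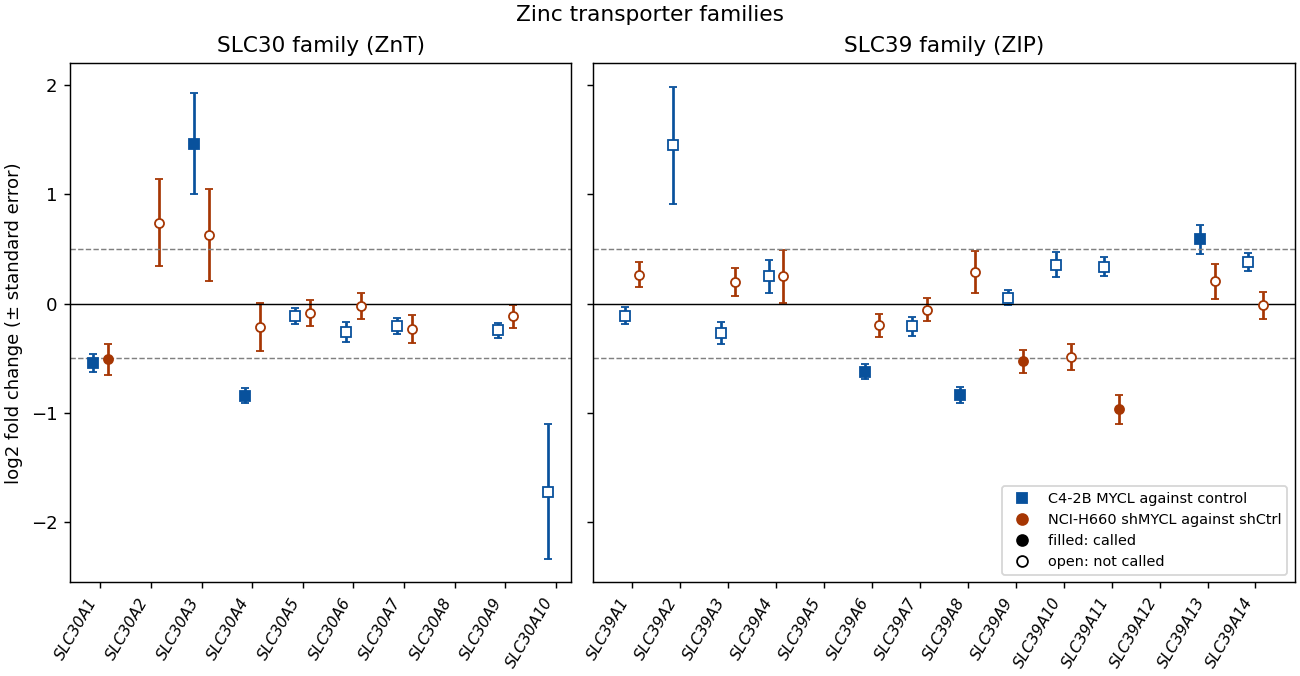
Log2 fold change with its standard error of the SLC30 (left) and SLC39 (right) zinc transporter genes that passed the low-count filter, for MYCL against control in C4-2B (blue squares) and shMYCL against shCtrl in NCI-H660 (brown circles); filled symbols are called and dashed lines mark the minimum of 0.5. SLC30A1 is the gene filled in both lines, and SLC30A4 and SLC39A8 are filled in C4-2B at −0.84 each.

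Other genes that respond to metals, oxidants or glucocorticoids, inputs that are also known to raise metallothioneins, were counted from fixed lists. Of 14 further metallothionein genes and pseudogenes, 12 were at 0 in every library. The other 2 were named after their values were seen. MT3, the brain form, had 27, 49, 20 and 19 counts and MT1M 18, 10, 0 and 10 in the shCtrl and shMYCL libraries. For shMYCL against shCtrl edgeR called 0 of these 2, with 0 at an unadjusted p under 0.05 and 0 called by DESeq2. In C4-2B libraries MT1M had 0 counts and MT3 at most 8, and neither was tested for MYCL against control. Between the controls edgeR called these 2 higher in NCI-H660, on those low counts, and DESeq2 called 1. Of 13 metal and oxidant stress genes in C4-2B, 8 were called higher and 2 lower, beside 11.8% and 8.12% of all genes, with a median log2 fold change of 0.581. HMOX1 (heme oxygenase) rose from 14.8 and 12.7 CPM to 91.0 and 126.3, a log2 fold change of 2.98 (SE 0.158, edgeR adjusted p = 9.6e-06). MT1X and SLC30A1 were lower in the same libraries, and a response to metals or oxidants was not tested. The others called higher were the glutathione and redox genes SLC7A11 (0.96), TXNRD1 (0.90), GCLM (0.58) and NQO1 (0.55) and the heat shock genes HSPA1A (1.43), HSPA1B (0.88) and DNAJB1 (0.79), and HSPA8 (−0.72) and HSPH1 (−0.82) were called lower. In NCI-H660, HSPA8 (0.85) and HSPH1 (0.61) were called higher and HMOX1 lower at −0.59 (SE 0.184), 3 of 13 beside 7.18% higher and 8.99% lower over all genes. Of 9 tested glucocorticoid response genes in C4-2B, 6 were called higher, beside 11.8% of all genes. They were DUSP1 (1.89), TSC22D3 (1.45), SGK1 (1.00), ERRFI1 (0.92), PER1 (0.59) and KLF9 (0.52). The other 3 were not called, among them FKBP5 at −0.20. NR3C1, the glucocorticoid receptor gene and also on this list, had at most 3 counts in a C4-2B library and was not tested there. It had 1091 to 1532 counts in NCI-H660 libraries. A response to glucocorticoid was not tested. Of the 10 listed genes in NCI-H660, FKBP5 was called higher at 0.56, and PER1 (−0.86), KLF9 (−0.82), ZBTB16 (−0.56) and CEBPD (−0.57) lower, beside 7.18% higher and 8.99% lower over all genes.

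Of 14 copper handling genes in C4-2B, the importer SLC31A1 (CTR1) at 0.82 and COMMD1 at 0.59 were called higher and the metalloreductase STEAP4 lower at −2.19, the last on at most 11 counts in MYCL libraries. These 3 of 14 are near the background of 11.8% higher and 8.12% lower. In NCI-H660, 3 of 13 tested copper genes were called, beside 7.18% higher and 8.99% lower over all genes. The copper exporter ATP7B was lower at −1.69 (SE 0.218) and STEAP3 at −0.75, and COMMD1 was higher at 0.85. Of the zinc enzymes, the carbonic anhydrases CA9 (1.57) and CA12 (0.62) were called higher of 4 tested in C4-2B, beside 11.8% of all genes, and edgeR called 0 of 5 in NCI-H660, with 1 at an unadjusted p under 0.05 and 0 called by DESeq2.

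Markers of other cell types were read beside these results. The summed level of 4 leukocyte markers was 11.97 to 14.9 CPM in C4-2B control and 34.6 to 39.5 in MYCL libraries, nearly all of it CD68, with PTPRC at 0. The summed level of 4 fibroblast markers was 100.5 to 102.9 CPM in shCtrl and 61.6 to 65.0 in shMYCL libraries, nearly all of it COL1A2, with DCN and PDGFRB at 0. The summed level of 3 endothelial markers was 6.78 to 7.15 CPM in shCtrl and 2.24 to 4.67 in shMYCL libraries, with at most 1 count of PECAM1 in a library, and it reached at most 7.99 in C4-2B control and 10.2 in MYCL libraries. The summed luminal markers went from 3246 to 3247 CPM in control to 2470 to 2576 in MYCL libraries, and the summed neuroendocrine markers from 1308 to 1428 in shCtrl to 874.9 to 948.1 in shMYCL libraries. The part of these marker changes in the lower metallothioneins and SLC30A1 was not tested.

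The genes most like MT2A and SLC30A1 were ranked by Pearson's r of log2 CPM over the 8 libraries, after each line was centred on its own mean, among 10131 genes with a mean log2 CPM of at least 3. The points share their libraries and depth, so r is a description only. For MT2A the first 5 were LRWD1 (r = 0.992), DEXI (0.982), MT-RNR1 (0.977), NDUFAB1 (0.975) and GRINA (0.966). For SLC30A1 they were ZBTB33 (r = 0.996), LRRC8B (0.993), INAFM2 (0.991), TMEM168 (0.99) and TFAP2A (0.989). Without centring, MT2A was nearest to MARVELD3, RNF26, PPP2R5D, ZNF584-DT and MTFP1 (r from 0.927 to 0.955) and SLC30A1 to EXTL2, CTSC, PLCB4, FERMT1 and PPARGC1B (r from 0.993 to 0.998).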

How the data were processed

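Poly(A) RNA libraries of 4 groups with 2 libraries each were analysed, and groups were taken from the sample titles. The authors deposited estimated counts for 78691 genes, not normalized between libraries, and TPM values for 65535. The paper describes TPM by gene length from an Ensembl annotation, but the lengths used varied between libraries. From shCtrl replicate 1 to shMYCL replicate 1, MT1F went from 3.41 to 1.68 CPM and from 34.4 to 13.0 TPM. SLC30A1 went from 25.4 to 15.2 CPM and from 7.88 to 4.60 TPM. Shares and orders by TPM carry these lengths. Per the labels the genome build was hg38, while the aligner, the counting tool and the annotation release are not given in the sources used here. Estimated counts were rounded to whole numbers. Each line was fitted alone in edgeR 4.0.16 under R 4.3.3 (TMM, filterByExpr, quasi-likelihood test, Benjamini-Hochberg adjustment over all genes). The difference of the MYCL effect and the difference between control states came from 1 fit of all 8 libraries. Printed CPM use TMM factors over 8 libraries. Standard errors were derived from the fold change and the test statistic. A count of 0 was read as up to 3 counts, and such floors cover counting error only.

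Alternatives were DESeq2 1.42.0, other size factors, other low-count filters and fold minimums, a replicate block, a fit of all 4 groups, summed MT1 and MT2 rows, leaving out each library, and limma 3.58.1 on log2(TPM + 1) or log2(TPM + 0.1) kept where 2 libraries reached a TPM of 1, centred by library or unfiltered. Removing each library's trend with gene length was added after seeing the data. The edgeR step was tested on simulated data in which 200 genes differed by 1.5 on the log2 scale. It recovered 196 in C4-2B, 192 in NCI-H660, 186 for the difference of the effects and 199 between the controls. In the same order it also called 10, 3, 9 and 6 unchanged genes. Smaller changes, such as those of the 10 followed genes within each line, were not simulated. Members, gene lists and tests were chosen with earlier results of these data known. All members were named, list genes were named where called in either line, and likeness was ranked by Pearson's r. MT3, MT1M, NR3C1, SLC30A2 and SLC39A2 were named besides, after their values were seen. Positions and exon overlaps are from GENCODE 44, promoters from RefSeq, and tables were handled in Python 3.11.15 with pandas 2.3.3.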

Additional observations from a re-analysis of the deposited data

Results flagged for a closer look

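For 4 of the 8 genes with counts in both lines, the effect of high against low MYCL differed between C4-2B and NCI-H660. This was the test of the difference itself, in edgeR's fit of all 8 libraries, where 8.33% of the 19605 genes tested were called negative and 9.59% positive. Direction, construct and cell line differ together and cannot be told apart. The value is the log2 change from control to MYCL in C4-2B minus that from shMYCL to shCtrl in NCI-H660. It was −1.96 for MT1X, −1.16 for MT2A, −1.06 for SLC30A1 and −0.83 for SLC39A6. Leaving out each of the 8 libraries in turn gave ranges from −2.14 to −1.77 for MT1X, −1.48 to −0.91 for MT2A, −1.23 to −0.89 for SLC30A1 and −0.93 to −0.74 for SLC39A6. These ranges reuse the libraries in which the 4 genes were picked.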

How the results depend on the processing

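In C4-2B, where 3 genes were called, 5 were called with no fold minimum and 0 at a log2 fold minimum of 1, and leaving out 1 library gave 3 to 5, the 5 without C4-2B MYCL replicate 2. In NCI-H660, where 5 were called, 3 were called with DESeq2, with log2(TPM + 1), with centred log2(TPM + 1), with log2(TPM + 0.1) and at a log2 fold minimum of 1. Unfiltered TPM gave 0 (limma called 1 gene of the whole table there, and 6 of the set had an unadjusted p under 0.05), and summing the MT1 and MT2 rows gave 2, since the sum replaces 4 genes. Leaving out 1 library gave 3 to 5 in NCI-H660, with 3 without shCtrl replicate 1 and 3 without shMYCL replicate 2. Apart from the fewer samples or features these settings use, the cause was not tested. Calls over all genes also moved with the setting. Of the 16866 genes tested in C4-2B, 3355 were called with the fold minimum and 5895 without it. The other counts of the set in this section are given without their share over all genes, so they describe the set only. The difference of the MYCL effect gave between 4 and 6 calls and the comparison of the controls between 5 and 8 over all alternatives. In the latter SLC39A10 (0.055) and MTF1 (0.055) reversed on log2(TPM + 1). There the median over all genes tested, a different set of genes, moved from 0.0334 to 0.525. Libraries with the same replicate number did not deviate together (r = −0.00185 in C4-2B and 0.0184 in NCI-H660), so the numbers were not taken as pairs, and with a replicate block 3 genes were called in C4-2B, 5 in NCI-H660, 4 for the difference of the effects and 7 between the controls. A left-out library leaves a group of 1, which was assumed to vary like the other group.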
